A study of Mus musculus with 4 samples.

Results

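Keratins and genes of the epidermal barrier were examined in mouse embryonic stem (ES) cells with and without p53, before and after DNA damage. The set holds 10 genes of 22411 named genes in the deposited tables. They are the keratins Krt7, Krt8, Krt17, Krt18 and Krt19, the desmosome genes Dsp, Jup, Pkp1 and Perp, and Sbsn. They were picked by name and matched through 11 RefSeq transcript rows, and a gene's FPKM (fragment count scaled to transcript length and library size) is the sum over its rows. Sbsn has 2 rows and the other genes have 1 each.

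The cells were p53+/+ or p53-/- ES cells of the C57BL/6X129Sv mix strain, kept for less than 20 passages in serum with leukemia inhibitory factor. They were left untreated, or were given 0.5 uM Adriamycin (doxorubicin, a drug that traps topoisomerase II on DNA) for 8 h. Each of the 4 groups, p53+/+ untreated, p53+/+ Adriamycin, p53-/- untreated and p53-/- Adriamycin, has 1 library of poly(A) RNA, so differences are between single libraries and carry no test. The sources used here give neither the number of ES lines behind each genotype nor the deleted part of the gene. Trp53 itself stood at 216 FPKM (untreated) and 165 FPKM (Adriamycin) in p53+/+ cells and at 78.6 and 76.5 FPKM in p53-/- cells, so its transcript was lower but not absent in the libraries labelled p53-/-. Coverage times length, summed over transcripts, came to between 3.34 and 4.32 gigabases per library. The ES cell markers Pou5f1 and Dppa5a were abundant in every library, Pou5f1 between 658 and 948 FPKM and Dppa5a between 926 and 1617 FPKM.

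Keratins are the intermediate filament proteins of epithelia, and each filament pairs a type I keratin (here Krt17, Krt18 and Krt19) with a type II keratin (Krt7 and Krt8). Krt8 and Krt18 are the pair of simple epithelia and are made early, in the outer layer of the mouse embryo. Desmosomes anchor the filaments at cell contacts: cadherins cross the membrane, plakoglobin (Jup) and plakophilins (Pkp1 to Pkp4) bind them from inside, and desmoplakin (Dsp) holds the filament. Perp is a membrane protein known both as a p53 target in dying cells and as a part of desmosomes in skin. Sbsn encodes suprabasin, a secreted protein of the upper epidermal layers, and lies beside Dmkn (dermokine) and Krtdap (keratinocyte differentiation associated protein), which encode other secreted proteins of those layers.

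Because Sbsn, Dmkn and Krtdap are neighbours, their promoter windows are shown together. In mm9 they follow one another on chromosome 7, with Sbsn at 31536490 to 31541153, Dmkn at 31548775 to 31566085 and Krtdap at 31572924 to 31576102, which leaves gaps of 7.62 and 6.84 kb. The windows below are RefSeq sequences of the build GRCm38.p6, from 250 bases before to 50 bases after a gene's start, all on the plus strand and read 5′ to 3′. Those not printed were searched in the same way on both strands. Capitals mark the AP-1 motif TGANTCA, a palindrome that was searched on both strands. Dmkn has 3 starts in the table, of which 2 lie 2 bases apart, so the first and the last are shown.
Sbsn, chr7:30751221-30751520: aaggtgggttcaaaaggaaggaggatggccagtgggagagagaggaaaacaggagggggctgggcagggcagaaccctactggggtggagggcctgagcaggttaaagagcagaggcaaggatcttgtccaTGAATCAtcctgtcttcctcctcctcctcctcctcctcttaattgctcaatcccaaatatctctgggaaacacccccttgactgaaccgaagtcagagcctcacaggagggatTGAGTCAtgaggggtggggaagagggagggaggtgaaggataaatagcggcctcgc
Dmkn, upstream start, chr7:30763506-30763805: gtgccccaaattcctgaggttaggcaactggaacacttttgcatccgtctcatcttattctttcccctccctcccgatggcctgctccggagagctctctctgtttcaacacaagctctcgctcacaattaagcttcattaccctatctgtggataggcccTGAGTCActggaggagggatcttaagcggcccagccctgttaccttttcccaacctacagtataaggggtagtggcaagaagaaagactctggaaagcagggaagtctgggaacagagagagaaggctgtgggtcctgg
Dmkn, downstream start, chr7:30776155-30776454: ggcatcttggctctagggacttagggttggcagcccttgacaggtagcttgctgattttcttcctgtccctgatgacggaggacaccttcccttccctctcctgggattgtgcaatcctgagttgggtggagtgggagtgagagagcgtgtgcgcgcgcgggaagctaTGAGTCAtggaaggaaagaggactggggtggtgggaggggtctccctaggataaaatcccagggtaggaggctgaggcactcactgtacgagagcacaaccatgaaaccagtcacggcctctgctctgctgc
Krtdap, chr7:30787655-30787954: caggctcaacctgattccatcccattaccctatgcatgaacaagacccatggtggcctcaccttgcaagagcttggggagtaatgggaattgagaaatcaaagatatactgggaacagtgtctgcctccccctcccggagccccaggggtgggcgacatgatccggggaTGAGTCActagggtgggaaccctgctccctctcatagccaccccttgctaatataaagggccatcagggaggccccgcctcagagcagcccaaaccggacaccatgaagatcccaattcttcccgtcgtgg
The Sbsn window holds the motif 119 and 6 bases before the start. The motif lies 89 and 82 bases before the upstream and downstream Dmkn starts shown, and 81 bases before the Krtdap start. Of all 32851 promoter windows in the table, 7.81% hold it. Windows were listed for 6 of the 10 genes, and among these the motif was matched in that of Sbsn and in none of those of Krt7, Krt8, Krt18, Jup and Dsp. TATAAA (13.6% of all windows) was matched in the windows of Krtdap and Krt8, and GGGCGG (35.7%) in those of Jup, Dsp and Krt7. The p53 half-site (8.36%) was matched in that of Dsp and in no other of the windows named here. A match of letters is a description and shows no binding.

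In p53+/+ cells, Sbsn, Perp, Krt7 and Krt19 stood higher after Adriamycin and Krt17 lower. The ratio of treated to untreated FPKM was 36.5 for Sbsn, 11.2 for Krt7, 9.12 for Perp and 2.62 for Krt19. Sbsn stood at 0.934 FPKM in untreated p53+/+ cells, 34.1 FPKM in treated p53+/+ cells, 2.56 FPKM in untreated p53-/- cells and 3.36 FPKM in treated p53-/- cells. The treated p53+/+ library thus stood far above the other three. Cufflinks, the program behind the tables, gives 95% bounds for each FPKM that cover counting and assignment error only. Summed over both Sbsn transcripts these ran from 0.358 to 1.53 FPKM in untreated and from 30.2 to 38.0 FPKM in treated p53+/+ cells, and they did not overlap. The shorter transcript (732 bases) made up 79.5% of the Sbsn FPKM in untreated and 73.9% in treated p53+/+ cells, and 63.5% and 79.1% in p53-/- cells. Both transcripts were higher after treatment in p53+/+ cells, the shorter at 0.742 and 25.2 FPKM and the longer (2286 bases) at 0.192 and 8.90 FPKM.

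Perp (chromosome 10, 18564877 to 18576878 in mm9) stood at 9.06 FPKM without and 82.7 FPKM with Adriamycin in p53+/+ cells, and at 4.49 and 5.68 FPKM in p53-/- cells. The treated p53+/+ library was the highest by 9.12-fold over the next, and both p53-/- libraries lay below the untreated p53+/+ library. The treated p53+/+ value lay above its own upper bound of 79.1 FPKM, and this bound was still far from that of the untreated library (9.53 FPKM). Differences are given as log2(FPKM + 1), on which those of low genes come out too small, and the p53+/+ response was 4.18 for Sbsn and 3.06 for Perp. Ordered by this difference among the 13019 genes that reached 1 FPKM in at least 1 library, Sbsn was at place 3, Perp at place 55 and Krt7 at place 340. The order of Perp and Krt7 depends on the pseudocount, and with 0.1 FPKM in place of 1 FPKM Krt7 stood at 3.21 and Perp at 3.17.

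**Figure D1:**
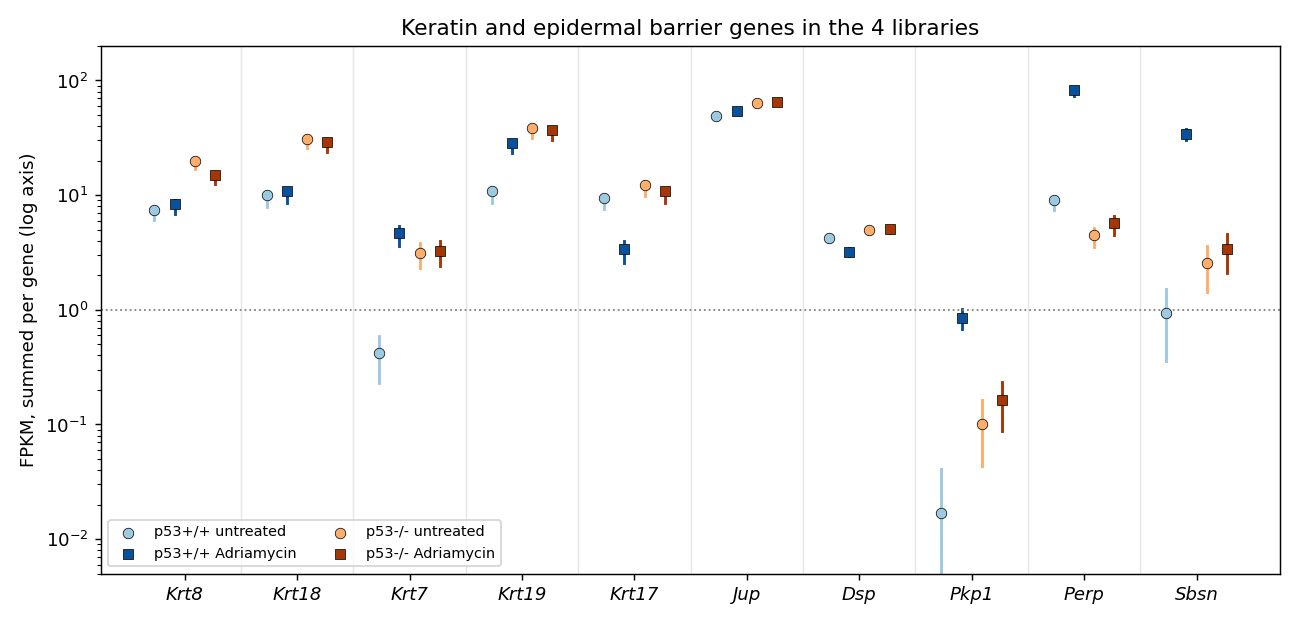
FPKM of the 10 genes (log axis, summed over transcripts) in the 4 libraries, with the Cufflinks 95% bounds as vertical lines (summed for Sbsn) and a dotted line at 1 FPKM. Perp and Sbsn stand highest in treated p53+/+ cells, at 82.7 and 34.1 FPKM, while Krt8 and Krt18 stand higher in both p53-/- libraries than in both p53+/+ libraries.

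The keratins of simple epithelia did not move as one group with treatment. Krt7 stood at 0.418 FPKM (bounds 0.229 to 0.596) in untreated and 4.70 FPKM (3.63 to 5.42) in treated p53+/+ cells, and at 3.11 and 3.24 FPKM in p53-/- cells. The untreated p53+/+ library was the low one, and after treatment the bounds of the genotypes overlapped. Krt19, a type I keratin of simple and ductal epithelia, stood at 10.8 and 28.3 FPKM in p53+/+ cells and at 38.6 and 36.9 FPKM in p53-/- cells. Again the untreated p53+/+ library was the lowest. The p53+/+ responses were 2.01 for Krt7 and 1.31 for Krt19.

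Krt8 and Krt18, which lie 23.9 kb apart on chromosome 15, showed another pattern. Krt8 stood at 7.49 and 8.41 FPKM in p53+/+ cells and at 19.96 and 15.1 FPKM in p53-/- cells. Krt18 stood at 10.05 and 10.8 FPKM in p53+/+ cells and at 31.1 and 29.2 FPKM in p53-/- cells. For both genes the 2 p53+/+ libraries had overlapping bounds and lay below both p53-/- libraries. Their p53+/+ responses were 0.15 and 0.10. The ratio of Krt18 to Krt8 FPKM was 1.34 and 1.28 in untreated and treated p53+/+ cells and 1.56 and 1.93 in p53-/- cells.

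Krt17, a keratin of hair follicles and wounded skin, was the only gene of the set that was lower by at least 1 after treatment. It stood at 9.46 and 3.41 FPKM in p53+/+ cells and at 12.3 and 10.9 FPKM in p53-/- cells, with a p53+/+ response of -1.25. The treated p53+/+ library was the lowest and its bounds (2.56 to 3.96 FPKM) overlapped none of the others. Krt42, a close relative of type I, stood at 19.1 and 13.4 FPKM in p53+/+ cells and at 15.7 and 16.0 FPKM in p53-/- cells. How reads shared between close keratin copies were placed was not given in the sources used here, so values of Krt17, Krt42, Krt14 and Krt16 are uncertain to that extent.

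Jup and Dsp differed by less than 1 in every comparison. Jup stood at 48.6 and 54.4 FPKM in p53+/+ cells and at 63.5 and 64.5 FPKM in p53-/- cells, the highest level of the set in every library but the treated p53+/+ one. Dsp stood at 4.22 and 3.21 FPKM in p53+/+ cells and at 4.94 and 5.04 FPKM in p53-/- cells. The p53+/+ responses of Jup and Dsp were 0.16 and -0.31, small values whose bounds nonetheless did not overlap. Pkp1, the plakophilin of stratified epithelia, stayed below 1 FPKM, at 0.0170 FPKM (0 to 0.0405) and 0.854 FPKM (0.684 to 1.02) in p53+/+ cells and at 0.101 and 0.163 FPKM in p53-/- cells. The treated p53+/+ library was the highest and its bounds lay apart from the other three, but the gene did not pass the filter of 1 FPKM. Its response of 0.87 on this scale became 3.03 with a pseudocount of 0.1 FPKM.

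Counted at a difference of at least 1, 4 of the 10 genes were higher in the p53+/+ response (Sbsn, Perp, Krt7 and Krt19) and 1 lower (Krt17). Krt8, Krt18, Jup and Dsp were past neither limit and Pkp1 did not pass the filter. Of all 13019 genes, 14.2% were past the limit, 11.4% higher and 2.78% lower. Under quantile normalization the median over all genes was -0.10 in place of 0.05. It took the share of higher genes among those counted from 80.4% to 65.3% and left 4 higher and 1 lower in the set. The median over the 9 genes that passed the filter was 0.16, against 0.05 over all genes that passed it, and with Pkp1 added it was 0.51. With a pseudocount of 5 FPKM Krt7 and Krt17 were no longer counted, at 0.84 and -0.78.

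None of the 10 genes differed by 1 or more between treated and untreated p53-/- cells, where 0.868% of all genes did, 0.407% higher and 0.461% lower. The values ran from 0.29 for Sbsn and 0.28 for Perp down to -0.38 for Krt8, with a median of 0.02. The bounds of Krt8 did not overlap between untreated (16.8 to 20.7 FPKM) and treated (12.5 to 15.5 FPKM) p53-/- cells, while those of the other genes did. No such share over all genes is given here, so this is a description only. The response of p53+/+ cells was above that of p53-/- cells by 1 or more for Sbsn (3.89), Perp (2.77), Krt7 (1.96) and Krt19 (1.37) and below it by 1 or more for Krt17 (-1.09). These are 4 and 1 of the 10 genes, against 10.4% above and 3.30% below (13.7% in all) among all genes. With a pseudocount of 5 FPKM these differences were 0.82 for Krt7 and -0.66 for Krt17. Quantile normalization took the share of exceeding genes among those past 1 from 76.0% to 65.3%.

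**Figure D2:**
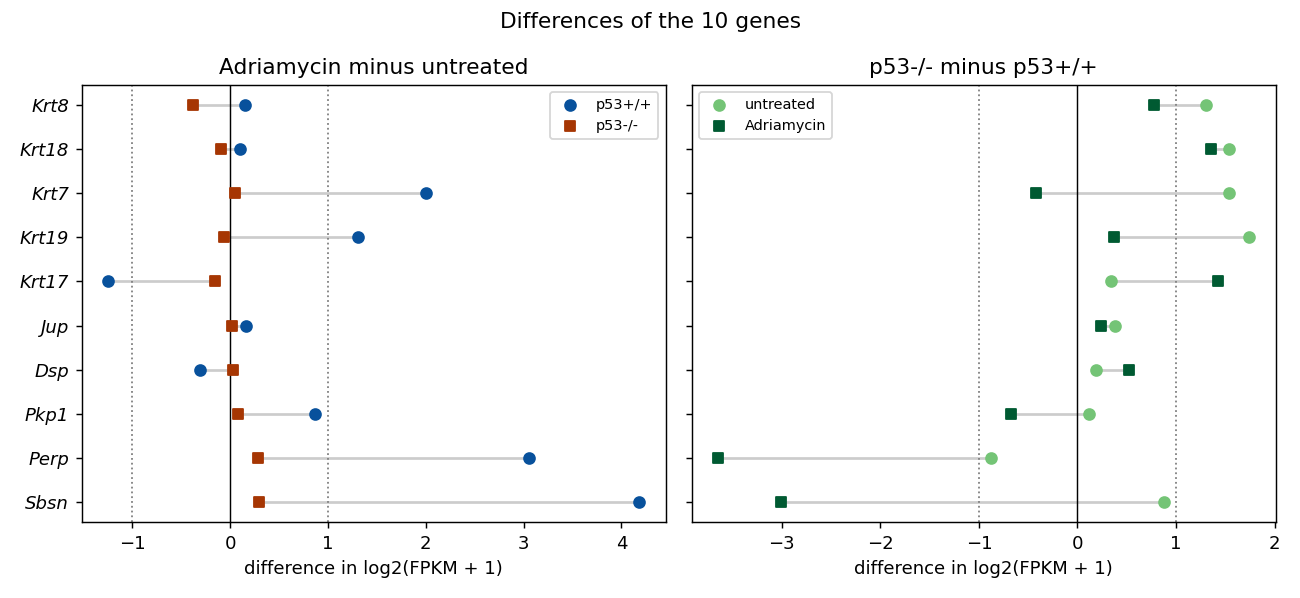
Differences in log2(FPKM + 1) of the 10 genes, for treatment in each genotype (left) and for p53-/- minus p53+/+ cells in each condition (right), 1 library per group, with dotted lines at -1 and 1. Sbsn (4.18) and Perp (3.06) have the largest p53+/+ responses on this scale, and all p53-/- responses lie between -0.38 and 0.29.

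Without treatment, 4 of the 5 keratins of the set were higher in p53-/- than in p53+/+ cells by at least 1. The differences were 1.74 for Krt19, 1.54 for Krt18, 1.53 for Krt7 and 1.30 for Krt8, and 0.34 for Krt17. None of the 10 genes was lower by 1 or more, and Perp stood at -0.87, Sbsn at 0.88, Jup at 0.38, Dsp at 0.19 and Pkp1 at 0.12. In the same comparison 6.66% of all genes were past the limit, 3.52% higher and 3.14% lower. The median over the 9 genes that passed the filter was 0.88, against -0.05 over all genes that passed it, and with Pkp1 added it was 0.63. With a pseudocount of 5 FPKM Krt7 stood at 0.58 and Krt8 at 0.999, and neither was counted. This comparison and the p53+/+ response subtract the same untreated p53+/+ library, in which Krt7, Krt8, Krt18, Krt19, Sbsn, Pkp1 and Jup had their lowest values, so they are not independent.

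After treatment the genotypes differed in another way. Krt17 (1.43) and Krt18 (1.35) were higher in p53-/- cells, and Perp (-3.65) and Sbsn (-3.01) were lower. These are 2 genes in each direction, against 19.8% of all genes past the limit, 6.74% higher and 13.0% lower. After quantile normalization higher genes made up 44.3% of those counted, against 34.1% before, with the same number of the set counted. Krt8 stood at 0.77, Dsp at 0.52, Krt19 at 0.37, Jup at 0.24, Krt7 at -0.43 and Pkp1 at -0.67. Krt17 fell under the limit with a pseudocount of 5 FPKM, at 0.92.

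The keratins were then set beside the rest of their family. The tables hold 54 keratin genes, of which 10 reached 1 FPKM in at least 1 library. All keratins of types I and II together came to 60.3 and 100.3 FPKM without and with Adriamycin in p53+/+ cells and to 127 and 117 FPKM in p53-/- cells, so both p53-/- libraries stood above both p53+/+ libraries. The 5 keratins of the set made up 63.4% and 55.5% of this in p53+/+ cells and 82.8% and 81.1% in p53-/- cells. Type I keratins exceeded type II keratins in every library, by 5.93-fold and 2.25-fold without and with Adriamycin in p53+/+ cells and by 4.11-fold and 4.85-fold in p53-/- cells.

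Of the 49 other keratins 44 did not reach 1 FPKM in any library. Krt5, Krt15 and Krt16 were higher by at least 1 in the p53+/+ response, where 11.4% of all genes were, and these 3 reached 1 FPKM in the treated p53+/+ library alone, so their passing the filter rests on the group where they are high. Krt5, the type II keratin of basal epidermal cells, stood at 0.109 and 13.1 FPKM in p53+/+ cells and at 0.193 and 0.154 FPKM in p53-/- cells. Krt15, a type I keratin of basal cells, stood at 0.0477 and 4.83 FPKM in p53+/+ cells and was listed at 0 in both p53-/- libraries. Krt16 stood at 0.372 and 2.54 FPKM and at 0.702 and 0.896 FPKM. Each of these was highest in the treated p53+/+ library, and Krt5 there exceeded Krt8 and Krt7 of the same type. Krt14, the usual partner of Krt5, stayed between 0.273 and 0.885 FPKM. Of the 44 other keratins below the filter, 39 were above 0 somewhere and 21 of these had their highest value in the treated p53+/+ library. The 44 genes together came to 9.60 FPKM there, against 1.59 FPKM before treatment. In p53-/- cells they came to 4.22 and 4.56 FPKM. No such share over other low genes is given here, so the count is not read as particular to keratins. The treated p53+/+ library also had the most genes at 1 FPKM or more, 12295 against 11427 to 11832 in the others.

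**Figure D3:**
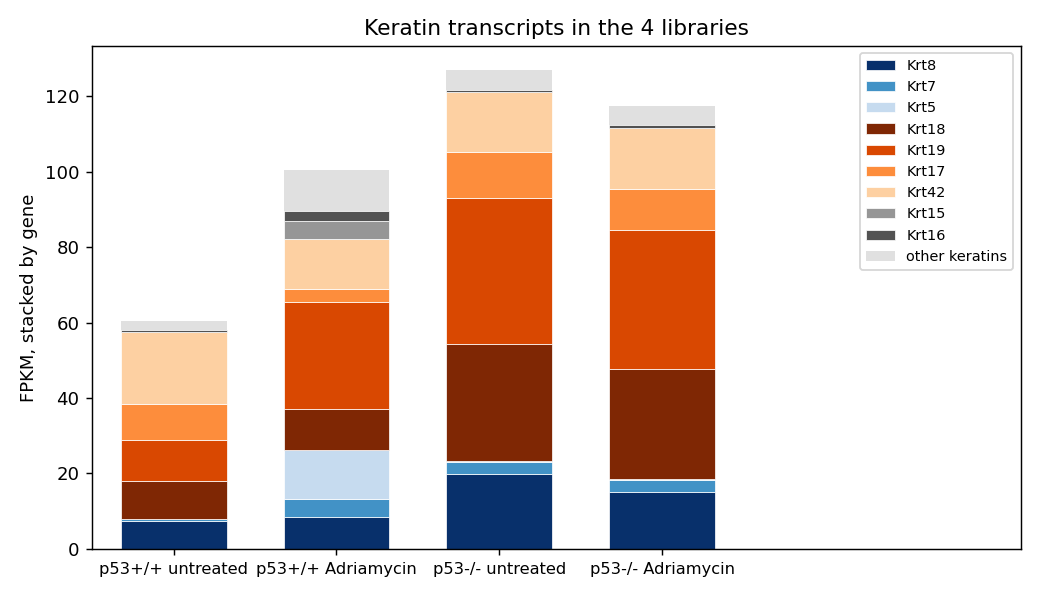
FPKM of keratin genes in each of the 4 libraries, stacked by gene, with type II keratins in blue at the bottom. Krt5 is visible in treated p53+/+ cells only, at 13.1 FPKM, and Krt8, Krt18 and Krt19 form a larger part of the bars of both p53-/- libraries.

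Genes of the cornified envelope and skin barrier gave a mixed picture in the p53+/+ response. Of the 30 listed genes that were found, 16 did not pass the filter and 8 passed it without differing by 1, among them Tgm1 (0.29) and Tgm3 (0.20), which encode transglutaminases. The remaining 6 were higher and none was lower, where 11.4% of all genes were higher. Casp14 and Asprv1 reached 1 FPKM in the treated p53+/+ library alone, so they passed the filter only through the group where they are high. The protease gene Casp14 stood at 0.153 and 8.96 FPKM in p53+/+ cells, and was listed at 0 and stood at 0.0205 FPKM in p53-/- cells. Evpl and Ppl, which encode the envelope proteins envoplakin and periplakin, stood at 1.24 and 14.8 FPKM and at 1.04 and 4.72 FPKM in p53+/+ cells, against 1.36 and 1.65 FPKM and 1.18 and 1.22 FPKM in p53-/- cells. The protease gene Asprv1, Sfn, which encodes an adaptor protein of the 14-3-3 family, and Dmkn were the other 3 higher genes. Ivl, which encodes the envelope protein involucrin, was listed at 0 in all 4 libraries, as were Flg2, Rptn, Sprr1b and Sprr3, which are named after their values were seen.

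The 2 neighbours of Sbsn stood near it in the p53-/- libraries, where Sbsn was at 2.56 and 3.36 FPKM. Both lay far below it in treated p53+/+ cells, where Sbsn was at 34.1 FPKM. Dmkn stood at 0.312 and 5.98 FPKM in p53+/+ cells and at 2.25 and 3.41 FPKM in p53-/- cells. Krtdap stood at 0.139 and 1.25 FPKM in p53+/+ cells and at 3.01 and 4.24 FPKM in p53-/- cells. Sbsn and Dmkn were highest in the treated p53+/+ library and Krtdap in the treated p53-/- library, while the untreated p53+/+ library was the lowest for each of these genes. In untreated cells the difference between p53-/- and p53+/+ was 1.82 for Krtdap, 1.31 for Dmkn and 0.88 for Sbsn. Of the 14 listed barrier genes past the filter, Krtdap and Dmkn were the 2 higher by 1 or more there. Tgm1 (-1.51) and Tgm3 (-1.43) were the 2 lower, where 3.52% of all genes were higher and 3.14% lower. Between treated genotypes 8 of the 14 were lower in p53-/- cells and 1 higher, where 13.0% and 6.74% of all genes were.

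Junction genes beside Dsp, Jup and Pkp1 were mostly below the limit. Of 12 other desmosome genes 4 passed the filter, and 1, Pkp3, was higher in the p53+/+ response, where 11.4% of all genes were. Pkp3 stood at 4.99 and 11.5 FPKM in p53+/+ cells and at 3.89 and 4.92 FPKM in p53-/- cells. Pkp2 stood at 21.9 and 37.4 FPKM in p53+/+ cells and at 33.5 and 34.7 FPKM in p53-/- cells, and Pkp4 between 17.8 and 30.8 FPKM, so Pkp1 was the lowest of the 4 plakophilins in every library. Dsg2 was the only desmosomal cadherin past the filter, at 10.1 and 4.70 FPKM in p53+/+ cells and at 6.21 and 6.57 FPKM in p53-/- cells.

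In the hemidesmosome list, of 9 genes in the tables, 4 were higher in the p53+/+ response, 4 passed the filter without differing by 1 and Col17a1 did not pass it. Of all genes 11.4% were higher. They were Itgb4 (3.44 FPKM before and 19.2 FPKM after treatment), Plec (9.46 and 25.0 FPKM), Lama3 (0.624 and 2.62 FPKM) and Lamb3 (0.669 and 2.61 FPKM), which encode an integrin chain, the linker plectin and chains of a laminin. Lama3 and Lamb3 reached 1 FPKM in the treated p53+/+ library alone. Of 12 genes of adherens junctions and epithelial adhesion 3 were higher, Nectin4 (0.791 and 15.8 FPKM), the protease gene St14 (16.6 and 84.2 FPKM) and the cadherin gene Cdh3 (6.96 and 20.7 FPKM), while Cdh1, which encodes E-cadherin, stood at 72.5 and 49.1 FPKM. Of 15 tight junction genes past the filter 2 were higher, Cldn4 and Cldn6. No gene of these 3 lists was lower by 1 or more in the p53+/+ response, where 2.78% of all genes were. In p53-/- cells none of their genes was past 1 in either direction, where 0.868% of all genes were. In untreated cells Cdh1 stood higher in p53-/- cells (152 FPKM), as did Cdh3 (22.1 FPKM) and Cldn7 (21.5 against 6.24 FPKM).

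Of 13 epithelial transcription factors and regulators past the filter, 2 were higher in the p53+/+ response and 1 lower, shares not far from the 11.4% and 2.78% of all genes. Zfp750, a factor of epidermal differentiation, stood at 1.49 and 18.3 FPKM in p53+/+ cells and at 0.111 and 0.158 FPKM in p53-/- cells. It was highest in the treated p53+/+ library, and both p53-/- libraries lay below the untreated p53+/+ library. Esrp1, a splicing regulator of epithelial cells kept on this list, stood at 3.84 and 0.669 FPKM in p53+/+ cells and at 10.1 and 7.91 FPKM in p53-/- cells. Trp63, which encodes the p53 relative p63 that governs stratified epithelia, stayed between 0.0247 and 0.329 FPKM, with its lowest value in treated p53+/+ cells.

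**Figure D4:**
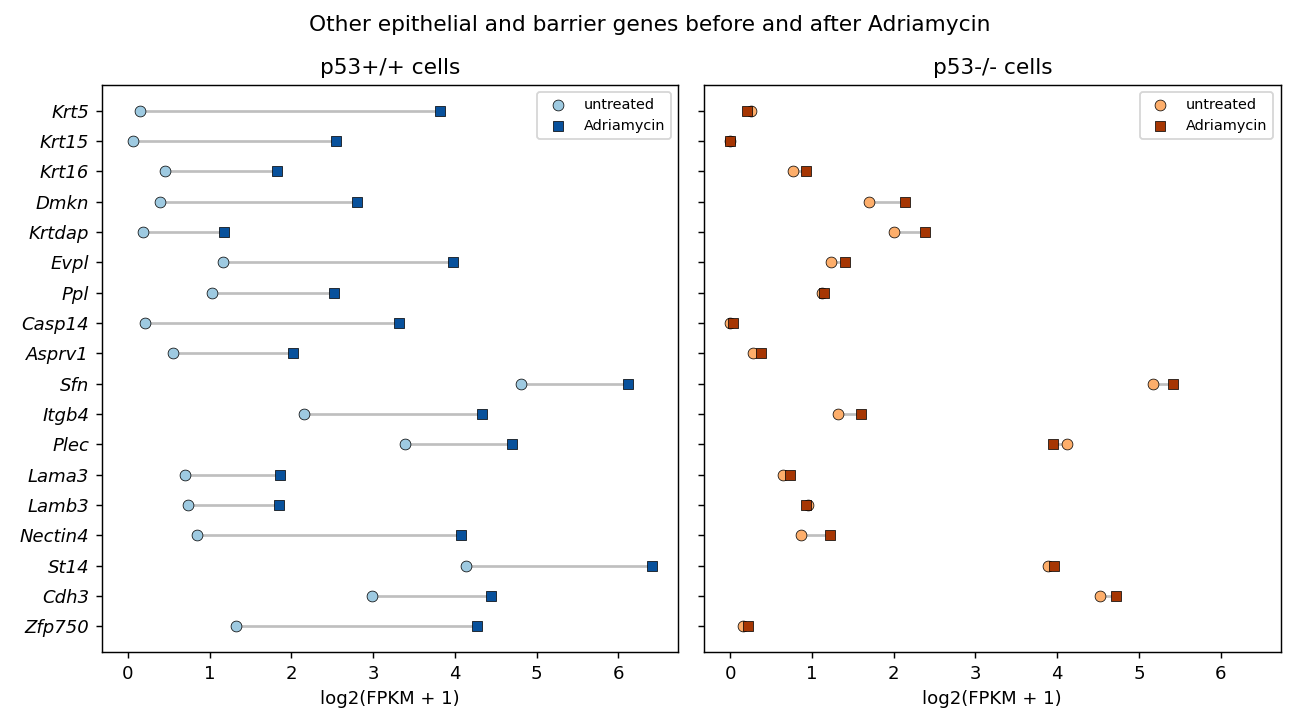
Levels in log2(FPKM + 1) of further keratin, barrier, junction and transcription factor genes before (circles) and after (squares) Adriamycin in each genotype, 1 library per group. The genes were chosen after their values were seen, from those higher by at least 1 in p53+/+ cells, with Krtdap (0.98) added, so their direction in the left panel is fixed by the choice.

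Other intermediate filament genes gave values on both sides. Of 13 past the filter, 2 were higher in the p53+/+ response, Synm (0.966 FPKM before and 10.8 FPKM after) and Des (8.47 and 41.9 FPKM), and 2 lower, Nefl and Ina. Synm reached 1 FPKM in the treated p53+/+ library alone, so it passed the filter only through the group where it is high. Of all genes 11.4% were higher and 2.78% lower. Vim, which encodes vimentin of mesenchymal cells, stood at 151 and 89.7 FPKM in p53+/+ cells and at 245 and 231 FPKM in p53-/- cells, above the summed keratins in 3 of the 4 libraries. In treated p53+/+ cells the keratins came to 100.3 FPKM. Nes, a filament gene of neural progenitors, stood at 0.675 and 0.612 FPKM in p53+/+ cells and at 8.85 and 8.39 FPKM in p53-/- cells.

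Markers of other cell types were read beside the keratins. Of 16 fibroblast markers 13 were higher and none lower in untreated p53-/- cells, where 3.52% of all genes were higher. Of these, 9 reached 1 FPKM in p53-/- libraries alone and 4 (Col1a1, Col5a1, Thy1 and Pdgfrb) in a p53+/+ library too. The list had a summed level of 114 and 97.1 FPKM in p53+/+ cells and 565 and 500.5 FPKM in p53-/- cells. Col3a1, Dcn, Postn and Prrx1 were listed at 0 in both p53+/+ libraries. Primitive endoderm markers were lower in 7 of 13 past the filter in untreated p53-/- cells, where 3.14% of all genes were lower. The sum over this list lay between 273 and 363 FPKM over the 4 libraries, of which Sparc alone made up 151 to 204 FPKM. Trophoblast markers summed to 30.5 and 32.4 FPKM in p53+/+ cells and to 37.5 and 40.9 FPKM in p53-/- cells, with 1 of 6 genes past the filter higher in untreated p53-/- cells, Hand1. Cdx2 stayed at or below 0.202 FPKM and Elf5 at or below 0.412 FPKM, and Prl3d1, Psg17 and Tpbpa were listed at 0 throughout. The part of these cell types in the keratin values of p53-/- cells was not tested. In bulk RNA fewer cells of a type and less RNA per cell cannot be told apart.

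Keratinocyte markers summed to 5.23 and 40.8 FPKM in p53+/+ cells and to 5.49 and 5.44 FPKM in p53-/- cells. Of the 12 markers 3 were higher in treated p53+/+ cells, Itgb4, Krt5 and Krt15, where 11.4% of all genes were higher. Krt5 and Krt15 reached 1 FPKM there alone. Another 7 did not pass the filter, and Trp63, Krt1, Dsg3 and Ivl were at 0.0837 FPKM or less there. ES cell markers were lower in 3 of 12 in the p53+/+ response (Zfp42, Nanog and Tfcp2l1), where 2.78% of all genes were lower. Between untreated genotypes 1 of the 12, Tfcp2l1, was lower by 1 or more in p53-/- cells (57.7 against 12.9 FPKM), where 3.14% of all genes were. The median over the 12 was -0.60 there, against -0.05 over all genes. The ES cell markers had a summed level of 4624 and 3148 FPKM in p53+/+ cells and 3351 and 2951 FPKM in p53-/- cells. Their part in the values of Sbsn, Perp, Krt7 and Krt19 was not tested.

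Known p53 target genes were read beside Perp and Sbsn. On a list of 24 targets, 20 were higher and none lower in the p53+/+ response, where 11.4% and 2.78% of all genes were. Of these 20, Fas reached 1 FPKM in the treated p53+/+ library alone and the other 19 elsewhere too. The median over the targets was 1.88, against 0.05 over all genes. No target was past 1 in p53-/- cells, where 0.868% of all genes were. The response of Perp, 3.06, lay near the 2.94 of Mdm2, the gene of the main p53 ubiquitin ligase. Without treatment 13 of the 24 targets stood lower by 1 or more in the p53-/- library, where 3.14% of all genes did. The median over the targets was -1.08, against -0.05 over all genes, beside -0.87 for Perp and 0.88 for Sbsn. Perp and Sbsn thus differed in sign in that comparison, and the bounds of Sbsn overlapped there.

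Genes with the most similar pattern were taken from the 9368 genes that reached 5 FPKM somewhere, by the Euclidean distance between centred log2(FPKM + 1) profiles over the 4 libraries. For Perp the nearest gene was Mdm2 (distance 0.12), followed by Tbc1d8 (0.21), Cyyr1 (0.21), Ephx1 (0.25) and Igdcc4 (0.25), of which Mdm2 and Ephx1 are on the list of p53 targets. For Sbsn it was Fosl1 (0.18), at 0.0811 and 18.2 FPKM in p53+/+ cells and 0.821 and 1.09 FPKM in p53-/- cells, and Parp10, Arhgef16 and Ssc5d followed at 0.60 to 0.69. For Krt8 the nearest were Syce3, Ccdc124, Fbxo31, H4c2 and H3c11, at 0.14 to 0.18. For Krt18 they were Sdc3, H2ac12, Unc119, Bspry and Thy1, at 0.10 to 0.16, of which Thy1 is on the fibroblast list. Krt8 and Krt18 were not among each other's 5 nearest genes. Fosl1, Parp10, Arhgef16, Ssc5d, Tbc1d8, Cyyr1 and Igdcc4 reached 5 FPKM in the treated p53+/+ library alone. Sdc3, Bspry and H3c11 reached it in p53-/- libraries alone. These genes entered the pool only through libraries where they are high, so the filter in part fixes their likeness. With 4 points per gene such distances describe these libraries only.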

How the data were processed

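Poly(A) RNA of 4 cultures was sequenced, 1 library per group, and the groups were taken from the sample titles. The authors deposited 1 table per library with FPKM and its lower and upper bounds, read coverage (a signal per base) and length for 30769 RefSeq transcript rows, laid out as a Cufflinks table per the file headers. Per the submitters' processing notes, the build was mm9 and the tools were Cufflinks, TopHat, TopHat2 2.0.5 and CASAVA 1.8.1. No version of Cufflinks, annotation or strand setting is given in the sources used here. The labels' protocols name an exome enrichment kit, so transcripts may be captured unequally. Count models were not used, since the deposited values are FPKM.

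Rows were named from a RefSeq table of GRCm38.p6 (30223 rows) and GENCODE M21 (184 rows), and 362 stayed unnamed. Transcripts were summed per gene, 800 short RNA rows were left out, and 13019 of 22411 genes reached 1 FPKM in at least 1 library. A difference is that of log2(FPKM + 1), computed from the deposited FPKM, and was counted at 1 or more in size, in 5 comparisons. Starts in the deposited tables count from 0, since length equals end minus start in 3327 rows and end minus start plus 1 in 0 rows, so 1 was added. No other row of the tables overlaps any of the 10 genes. Of their 40 deposited FPKM values, 35 lay within their own bounds (summed for Sbsn), and the other 5 (Perp in treated p53+/+ cells, Krt18 and Krt19 in both p53-/- libraries) lay above the upper bound. Depth was taken as the sum of coverage times length. The bounds cover counting and assignment error within a library, not the spread between cultures.

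The 10 genes and the 14 other lists were chosen with earlier results of these data known. All 10 genes are named. Of each list, genes past 1 in any comparison (the 4 largest first), the 4 of highest FPKM and the defining markers could be named. The patterns nearest to Krt8, Krt18, Sbsn and Perp follow a fixed distance. Some genes that these rules would name are not reported here. The alternatives were other pseudocounts, filters, transcript rules, scalings and a limit of 1.5-fold. Calculations used Python 3.11.15, pandas 2.3.3, numpy 2.4.6 and matplotlib 3.10.9, and were tested on simulated data.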

Additional observations from a re-analysis of the deposited data

Results flagged for a closer look

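The response to Adriamycin had opposite signs in p53+/+ and p53-/- cells for 4 of the 10 genes. With 1 library per group these differences were not tested, and 42.6% of all genes had responses of opposite sign. The signs of small responses turned with the scaling, so that 5 of the 10 genes had opposite signs under median ratio scaling and 2 under quantile normalization. Under quantile normalization both responses were below 0 for Krt8 (-0.025 and -0.412), Krt18 (-0.041 and -0.109) and Dsp (-0.626 and -0.074), and those of Krt7 became opposite (1.66 and -0.07). Krt19 kept opposite signs under every scaling tried, and another pseudocount cannot turn the sign of a response. The p53+/+ response minus the p53-/- response was 1.37 for Krt19 (1.31 and -0.06), 0.53 for Krt8 (0.15 and -0.38), 0.19 for Krt18 (0.10 and -0.09) and -0.34 for Dsp (-0.31 and 0.02). Among the other epithelial genes whose responses differed by at least 1, opposite signs were found for Krt5 (3.72), Plec (1.49), Cldn4 (1.26) and Lamb3 (1.14) on the higher side and for Dsg2 (-1.04) and Cldn3 (-1.02) on the lower side. In each of these the p53-/- response was small, between -0.18 and 0.07.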

How the results depend on the processing

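No paired analysis was possible because each group has 1 library, and for the same reason no replicate could be left out. No difference of the 10 genes that was counted changed sign under another scaling, while small responses of Krt7, Krt8, Krt18, Dsp and Jup did. Another pseudocount cannot turn the sign of a difference between 2 libraries. Of 350 values 339 kept their side of the limit. Only Sbsn has more than 1 row, and every row of the 10 genes was flagged OK. The 2 transcript rules thus left most values unchanged by construction, and the 339 include these. With a pseudocount of 5 FPKM the number of the 10 genes counted went from 5 to 3 in the p53+/+ response, from 4 to 2 between untreated genotypes and from 5 to 3 for the response difference. Counts over all genes moved more. For the p53+/+ response 1846 genes became 2771 with a pseudocount of 0.1 FPKM, 782 with 5 FPKM and 4296 at 1.5-fold. For the p53-/- response 113 became 289, 51 and 404 in the same order, and 170 with the main transcript. Between untreated genotypes 867 became 1741, 258 and 2774. Between treated genotypes 2574 became 1132 with a pseudocount of 5 FPKM and 5359 at 1.5-fold. For the response difference 1788 became 772 and 4384. The cause was not tested beyond the alternatives' own construction, since a larger pseudocount shrinks low genes and a lower limit admits more. Low values limit Pkp1, and Sbsn and Krt7 in untreated p53+/+ cells: with a pseudocount of 0.1 FPKM Sbsn differed by 1.36 between untreated genotypes, and Pkp1 by -1.86 between treated genotypes and by 2.64 in the response difference.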
